A study of Rattus norvegicus with 18 samples.

Results

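Gene expression in the jejunal mucosa of rats given ribociclib was compared with that of rats given vehicle. The ribociclib group was formed by 3 arrays labelled ribociclib at 300 mg/kg/day and the vehicle group by 3 arrays labelled vehicle (0.5% methyl cellulose), together 6 of the 18 arrays of the study. All were from male Sprague Dawley rats aged 6 to 8 weeks that were dosed by oral gavage once a day, and RNA came from scrapings of the jejunal mucosa. The other groups, with 3 arrays each, were given abemaciclib at 36 or 120 mg/kg/day or palbociclib at 30 or 100 mg/kg/day. The title of abemaciclib array B at 120 mg/kg/day names a dose of 100, and its treatment label, 120, was followed. Each group of 10 rats was dosed for 4 or 15 days, and the labels tie no array to an animal or a duration. The p-values therefore reflect only how much the arrays of a group differed, which may be technical. Ribociclib and abemaciclib were given in a citrate buffer (10 mM, pH 3) holding hydroxypropyl methylcellulose (0.5%) and tween 80 (0.25%), whereas the vehicle arrays carry the methyl cellulose formulation in which palbociclib was given. Ribociclib and its formulation therefore cannot be told apart in the comparison with vehicle. The values describe 14217 genes, each represented by its brightest probe set annotated to 1 symbol.

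Ribociclib, palbociclib and abemaciclib are oral inhibitors of the cyclin-dependent kinases CDK4 and CDK6. With D-type cyclins these kinases phosphorylate the retinoblastoma protein, which releases E2F transcription factors and lets a cell enter S phase. The intestinal epithelium renews itself from dividing crypt cells, and its surface is shared with intraepithelial lymphocytes, mostly CD8 T cells held there by the integrin of Itgae and Itgb7. Immediate early genes are transcribed within minutes of growth factor or stress signals without new protein synthesis, and they encode transcription factors such as EGR1 and feedback inhibitors such as the DUSP phosphatases.

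All values are log2 signals, so a difference of 1 is a doubling, and they lay between 2.86 and 14.34. No counts of reads underlie arrays, and their number limits the precision. Array medians ran between 5.40 and 5.51, and signals near or below them were not shown to be above background, so a fold change with a group there is uncertain in size. The enterocyte genes Vil1, Fabp1, Fabp2, Apoa4 and Cdh17 and the goblet cell mucin gene Muc2 lay between 13.39 and 14.23 on all 6 arrays. The β-actin probe sets of the 3′ and 5′ ends differed by 0.40 to 0.90 on the ribociclib arrays and 0.57 to 0.79 on the vehicle arrays, a measure of RNA quality. Correlations over all probe sets except controls were 0.953 to 0.975 among the ribociclib arrays and 0.982 to 0.993 among the vehicle arrays. Between the groups they were 0.961 to 0.971, so the ribociclib arrays were about as far from each other as from vehicle. Ribociclib array A stood apart in several gene lists, as given beside the results it touches.

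Ribociclib changed 531 of the 14217 genes relative to vehicle (3.73%) at an adjusted p under 0.05, with 142 genes higher (0.999%) and 389 lower (2.74%). The median change of the called genes was 2.38-fold among those higher and 2.13-fold among those lower, and 91 of the 142 and 231 of the 389 reached 2-fold. The 3 ribociclib arrays did not overlap the 3 vehicle arrays for 528 of the called genes, which was true of 24.4% of all genes (10.4% higher and 14% lower). An unadjusted p under 0.05 was found for 2869 genes, and the median difference of all genes was 0.00. The test was limma's moderated test over all 18 arrays with Benjamini-Hochberg adjustment. With 3 arrays in each group, the smallest two-sided p that an exact permutation test of a single gene can reach is 0.1.

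The number of called genes depended on single arrays and on how the spread was estimated. Without ribociclib array A it was 1317, without B 492 and without C 273. Without vehicle array A it was 207, without B 124 and without C 120. Fitted on the 6 arrays alone, the model called 29 genes. Every one of the 531 genes kept its direction under all alternatives tried. For the 528 whose arrays did not overlap, leaving out an array could not reverse the direction, so this is no sign of stability. In each of the 6 fits that left out 1 array, 86 of the 531 (24 higher and 62 lower) passed. Among the genes named here, these include 12 of the 24 with the largest changes, given with them, and Dusp6, Gdf15, Insig1, Mrpl15, Slc25a15, Cd8a, Nkg7, Cdkn2d, Timp1, Sirt3, Cdx2, Cited2 and Spn. Every other gene named as changed against vehicle missed the threshold in at least 1 of the 6 fits.

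Among the 12 genes with the largest rises, the steepest was that of Ly6al, a gene of the LY6 family of membrane-anchored surface proteins. Ly6al signal was 12.35, 10.62 and 11.89 on ribociclib arrays A to C, against 5.95, 6.44 and 5.79 on vehicle arrays A to C. It was near background with vehicle and bright on each ribociclib array, a difference of 5.56 (95% interval 3.14 to 7.98, 47.2-fold, adjusted p = 0.0156), and its adjusted p was between 0.0518 and 0.0652 when any 1 vehicle array was left out. Adm encodes adrenomedullin, a vasoactive peptide made by epithelia and induced by hypoxia. Adm gave 7.84, 10.52 and 8.47 with ribociclib, against 5.20, 5.39 and 5.51 with vehicle (12-fold higher, adjusted p = 0.000722). The highest of its ribociclib values was that of array B, and even the lowest was well above vehicle. Plaur, the urokinase receptor that focuses plasmin activity at the edge of migrating epithelium, had signals of 10.28, 11.04 and 10.06 with ribociclib and 6.83, 6.82 and 7.56 with vehicle (10.5-fold higher, adjusted p = 0.00179). The groups were far apart and did not overlap.

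Genes of the immediate early and stress response lists were among the other large rises. Maff, a small MAF transcription factor, was at 9.02, 9.63 and 9.10 with ribociclib, against 6.08, 6.09 and 6.81 with vehicle (7.59-fold, adjusted p = 0.000547). Ppp1r15a (GADD34), which directs dephosphorylation of the initiation factor eIF2α, was at 9.48, 10.06 and 9.71 with ribociclib, against 6.57, 7.27 and 7.13 with vehicle (6.78-fold, adjusted p = 0.00146). Both genes held tight values within each group and wide gaps between them. Egr1, the zinc finger factor of the early growth response, gave 12.08, 9.06 and 12.03 with ribociclib, against 8.81, 8.59 and 8.52 with vehicle. Arrays A and C carried the Egr1 rise (5.35-fold, adjusted p = 0.0403), and array B was only slightly above the highest vehicle array. Without array B its adjusted p was 0.000892, whereas leaving out any other array gave one between 0.0739 and 0.151. Tnfaip3 (A20), a ubiquitin-editing brake on NF-κB, rose 4.73-fold. The other rises were 7.07-fold for Tsc22d2, 6.06-fold for the retinoic acid-induced orphan receptor gene Gprc5a, 5.05-fold for the cytoskeletal linker gene Gas2l3, 4.98-fold for the ubiquitin ligase gene Siah2 and 4.67-fold for Noct, which encodes the rhythmic NADP(H) phosphatase nocturnin.

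The largest falls included metabolic, mitochondrial and immune genes. Ppargc1a encodes PGC-1α, the coactivator that drives mitochondrial biogenesis and oxidative metabolism. Its signal was 5.97, 6.77 and 6.08 with ribociclib, against 9.03, 8.61 and 8.60 with vehicle (5.54-fold lower, adjusted p = 0.000547). Angptl4, a secreted lipoprotein lipase inhibitor and PPAR target, was at 5.86, 7.81 and 6.67 with ribociclib, against 9.66, 9.87 and 9.68 with vehicle (7.77-fold lower, adjusted p = 0.00494). Vehicle arrays were close to each other for both genes, and every ribociclib array was below them. Tnfsf10 encodes TRAIL, a death ligand of the tumour necrosis factor family. Tnfsf10 was at 6.10, 5.63 and 5.13 with ribociclib and at 8.45, 8.08 and 8.77 with vehicle (7.02-fold lower, adjusted p = 0.00139). Il1b, the gene of the inflammatory cytokine interleukin-1β, was at 5.56, 5.20 and 5.32 with ribociclib and at 7.66, 7.77 and 8.14 with vehicle (5.65-fold lower, adjusted p = 0.000555), with ribociclib values around the array median. Trim32, a ubiquitin ligase gene, was at 6.43, 6.52 and 6.74 with ribociclib and at 8.84, 8.34 and 8.53 with vehicle (4.01-fold lower, adjusted p = 0.000547).

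Among the remaining falls, Ugt2b15, a glucuronosyltransferase of drug and steroid clearance, was at 3.56, 5.83 and 3.97 with ribociclib and at 7.33, 6.98 and 9.02 with vehicle (adjusted p = 0.0451). The ribociclib signals on arrays A and C were at the bottom of the scale and not shown to be above background, so no fold is given. Bco1, which cleaves β-carotene to retinal, fell 5.24-fold and Slc16a1, the monocarboxylate transporter MCT1, fell 4.19-fold. The leukocyte genes Cd244l1 and Evi2b were 5.21-fold and 4.09-fold lower. Tmem229a fell 5.64-fold, and Arg1, which encodes arginase 1, fell 3.93-fold to signals below the array median.

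**Figure D1:**
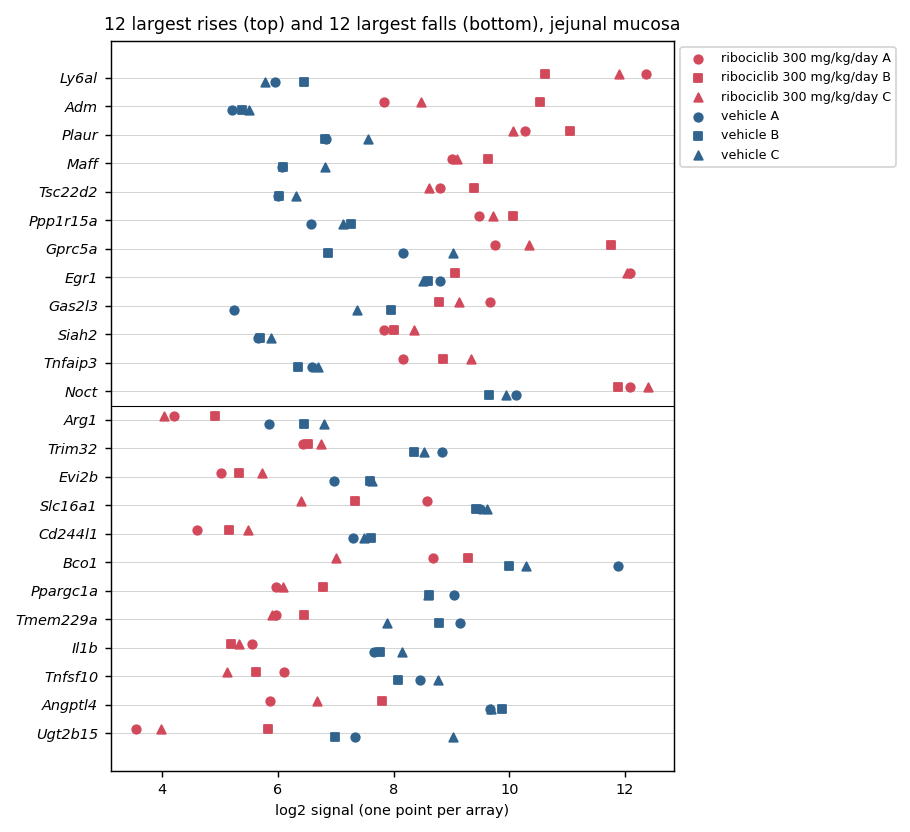
Log2 signal on each array for the 12 genes with the largest rises (top) and the 12 with the largest falls (bottom), with ribociclib in red and vehicle in blue and a marker shape for each array letter. The groups did not overlap for any of the 24 genes, a condition of the choice, and Egr1 and Gprc5a show the wide spread among arrays of 1 group.

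Of these 24 genes, 12 passed in each fit that left out 1 array. They were the rises of Adm, Plaur, Maff and Ppp1r15a and the falls of Angptl4, Tnfsf10, Il1b, Tmem229a, Ppargc1a, Cd244l1, Evi2b and Trim32. The other 12 missed the threshold in at least 1 such fit. For the 5 genes with several probe sets, 5 of 7 other probe sets had the same direction and 3 of them passed. The exceptions were a second, dim probe set of Slc16a1 and one of Tmem229a, which differed by 0.15 and 0.16 the other way and did not pass. The remaining probe set of Tmem229a (mean signal 6.26) counted as the same direction but differed by only -0.08 and did not pass (adjusted p = 0.805 by limma).

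Immediate early genes had the highest median difference and the most rises of the 51 gene lists. Of the 34 measured, 8 were higher and 1 was lower, and the median difference was 1.00, beside 0.999% higher and a median of 0.00 over all genes. Their median on the single arrays, relative to the vehicle mean, was 1.14, 0.56 and 0.62 on ribociclib arrays A to C and between -0.11 and 0.14 on the vehicle arrays. Along with Maff and Egr1, the genes that rose were Egr2, Klf6 and Fosl2 among the transcription factors, Dusp6 and Dusp1 among the phosphatases that switch off MAP kinases, and Ccn2, a matricellular growth factor. Dusp6, whose product acts on ERK, was at 12.51, 12.60 and 12.16 with ribociclib, against 10.40, 9.82 and 10.79 with vehicle (4.26-fold, adjusted p = 0.00523). Its 3 ribociclib values were alike and far above vehicle. Dusp1 was at 11.93, 10.36 and 10.82 with ribociclib, against 9.64, 9.37 and 9.47 with vehicle (2.92-fold, adjusted p = 0.0467). Klf6 was 2.46-fold, Fosl2 2.25-fold and Ccn2 3.47-fold higher. Egr2 was 2.87-fold higher, but its mean signal over all arrays was 4.82, below the array medians, so its fold is uncertain. A second, dimmer probe set of Egr2 differed by 0.10 and did not pass. Dusp2, expressed mainly in leukocytes, was the member that fell (a difference of -0.58, at signals below the array median).

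Not every early gene moved. Fos itself was bright in both groups, at 12.57, 12.16 and 11.68 with ribociclib and 12.50, 11.85 and 12.22 with vehicle, a difference of -0.05 (95% interval -0.59 to 0.49), and Myc differed by -0.26 (-1.30 to 0.78). Fosb differed by 2.96 (1.14 to 4.78) and Areg, the gene of the EGF receptor ligand amphiregulin, by 2.10 (0.83 to 3.37), but their adjusted p-values were 0.0676 and 0.0646. The number of early genes called was 2 or 3 when any 1 vehicle array was left out and 8, 7 and 5 without ribociclib arrays A, B and C. The median difference of the list stayed between 0.82 and 1.15 in these fits.

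The regions just upstream of these genes can be set beside their values. RefSeq start sites on the GRCr8 rat assembly were matched for 25 of the 34 genes, among them all 8 that rose. A serum response element core (CArG box), the binding sequence of the serum response factor, was found on either strand in the 250 bases before the start of Egr1, Egr2 and Klf6, 3 of the 8, and in 2 of the other 17 genes. The cyclic AMP response element, TGACGTCA, was present in Dusp1 and Maff, 2 of the 8, and in 3 of the other 17. The AP-1 site (TGANTCA) was in 0 of the 25. In all 33469 such regions the shares were 1.5%, 1.59% and 6.34% for the CArG box, the cyclic AMP response element and the AP-1 site. These matches describe letters in a window and no binding. Shown 5′ to 3′ on the strand of the gene, with motif matches in capitals, are the regions of Egr1 (chr18:26736828-26737077, plus strand), Egr2 (chr20:21054442-21054691, minus strand), Dusp1 (chr10:17184603-17184852, plus strand) and Maff (chr7:112792537-112792786, plus strand). These genes passed as higher and hold matches. Klf6, which also passed as higher and holds a CArG box, is not shown. Of the regions shown, Egr1 holds CArG boxes at 2 places and the others hold 1 match each.
Egr1: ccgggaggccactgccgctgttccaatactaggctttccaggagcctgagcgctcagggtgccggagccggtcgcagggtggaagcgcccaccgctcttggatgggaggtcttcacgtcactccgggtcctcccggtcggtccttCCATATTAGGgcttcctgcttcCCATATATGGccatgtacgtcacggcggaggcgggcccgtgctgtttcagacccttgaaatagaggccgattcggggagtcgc
Egr2: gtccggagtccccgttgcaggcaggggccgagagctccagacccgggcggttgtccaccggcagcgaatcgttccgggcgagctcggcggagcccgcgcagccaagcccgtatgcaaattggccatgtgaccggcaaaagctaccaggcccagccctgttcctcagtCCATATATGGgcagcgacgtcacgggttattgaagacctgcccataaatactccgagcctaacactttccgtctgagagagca
Dusp1: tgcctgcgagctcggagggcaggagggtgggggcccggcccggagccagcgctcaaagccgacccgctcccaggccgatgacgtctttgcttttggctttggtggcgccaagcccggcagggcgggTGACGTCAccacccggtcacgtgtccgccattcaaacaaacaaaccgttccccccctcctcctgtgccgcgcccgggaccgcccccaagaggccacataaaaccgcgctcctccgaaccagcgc
Maff: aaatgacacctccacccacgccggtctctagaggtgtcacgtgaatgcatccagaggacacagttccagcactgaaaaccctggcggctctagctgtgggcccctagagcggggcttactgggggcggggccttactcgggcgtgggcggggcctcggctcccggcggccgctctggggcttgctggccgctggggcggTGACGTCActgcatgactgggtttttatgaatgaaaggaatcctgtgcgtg

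**Figure D2:**
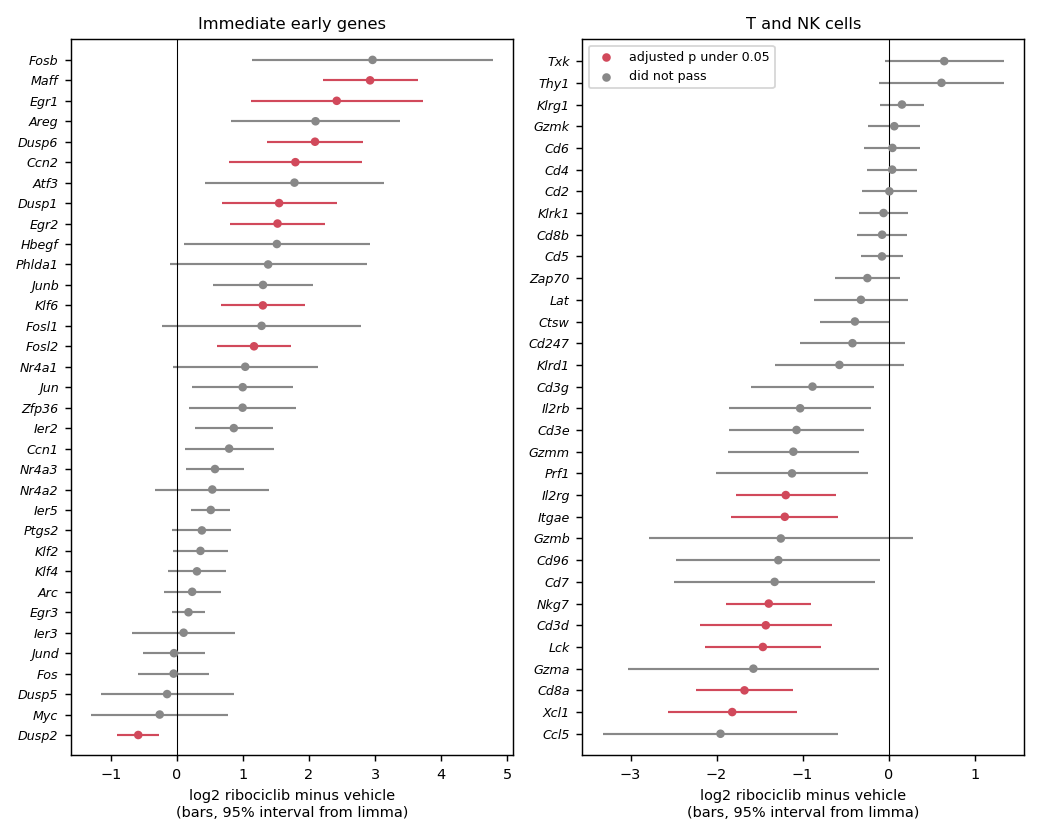
Difference of group means on the log2 scale, ribociclib minus vehicle, for the immediate early genes (left) and the genes of T and NK cells (right), with 95% intervals from limma and genes that passed in red. Most early genes lie right of 0 and most T and NK cell genes left of it, and wide bars mark genes such as Fosb and Ccl5 whose arrays disagreed.

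Genes of the integrated stress response, in which phosphorylated eIF2α favours translation of ATF4, gave the second largest number of rises. Of 35 measured, 5 were higher and 0 lower, with a median of 0.44, beside 0.999% higher and 2.74% lower over all genes. The members that rose were Ppp1r15a, Gdf15, Ddit4, Asns and Chac1. Gdf15, the stress hormone that acts on appetite, was at 5.18, 5.40 and 5.26 with ribociclib, against 4.07, 4.11 and 4.30 with vehicle (2.17-fold higher, adjusted p = 0.00521). All of these values lay below the array medians, and each group was tight. Ddit4, an mTORC1 inhibitor, rose 3.26-fold, the asparagine synthetase gene Asns 2.53-fold and the glutathione-degrading enzyme gene Chac1 2.40-fold. Ddit3 (CHOP) was at 9.63, 11.75 and 9.60 with ribociclib, against 8.98, 8.82 and 8.91 with vehicle, and did not pass (adjusted p = 0.152). Array B was highest for Ddit3, Ddit4 and Chac1. Its list median was 0.77, against 0.23 for array A and 0.11 for array C. Without array B the list median was 0.23, and 3 members passed. With 1 vehicle array left out, 2 or 3 passed.

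Chaperone genes split. Bag3 and Dnajb1, cochaperones of HSP70, rose 3.50-fold and 2.39-fold, while the median of the 21 heat shock genes was -0.26. They were the 2 of these 21 that passed, beside 3.73% of all genes. In the unfolded protein response, only Dnajb9 passed among 21 genes, close to the share over all genes. This gene of an endoplasmic reticulum cochaperone rose 2.49-fold. It was at 11.62, 11.17 and 11.43 with ribociclib, against 10.10, 10.10 and 10.08 with vehicle, and the list median was -0.24. These 3 genes missed the threshold whichever vehicle array was left out.

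**Figure D3:**
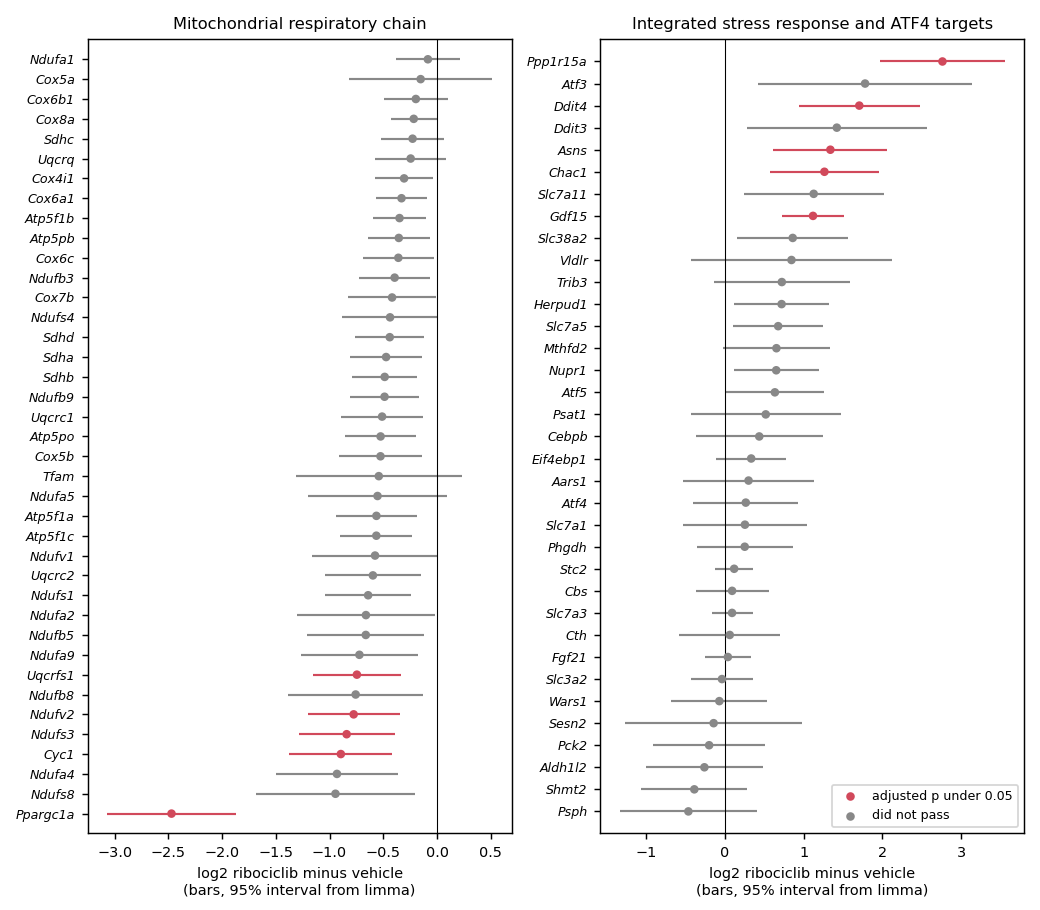
Difference of group means on the log2 scale, ribociclib minus vehicle, for the mitochondrial respiratory chain list (left) and the integrated stress response list (right), with 95% intervals from limma and genes that passed in red. All 39 mitochondrial genes lie left of 0 with 5 past the threshold, and the stress response genes that passed all lie right of it.

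Glucocorticoid-responsive genes gave 4 higher and 1 lower of 28, with a median of 0.26, beside 0.999% higher and 2.74% lower over all genes. Fkbp5, a chaperone of the glucocorticoid receptor and one of its strongest targets, was at 9.82, 10.19 and 9.35 with ribociclib, against 7.84, 8.35 and 7.02 with vehicle (4.14-fold, adjusted p = 0.0376). Every ribociclib array was above every vehicle array. Ddit4, Dusp1 and Per1 (1.73-fold) also rose, and the receptor gene itself, Nr3c1, was the member that fell (2.16-fold, adjusted p = 0.0361). No member of this list passed without vehicle array A or B, and 1 passed without vehicle array C or ribociclib array C. Per1 and the clock repressor gene Bhlhe40 (4.46-fold) were the 2 of 19 clock genes that rose, beside 0.999% higher over all genes. The clock gene Nr1d1 was at 4.33, 9.01 and 8.06 with ribociclib and at 7.69, 7.55 and 6.79 with vehicle, so ribociclib array A was far below the others. The labels give no hour of sampling.

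Among 20 genes of cholesterol synthesis, Insig1 and Msmo1 rose and none fell, beside 0.999% higher and 2.74% lower over all genes. Insig1, the sterol-regulated brake on SREBP processing, was at 12.81, 13.24 and 11.99 with ribociclib, against 10.80, 10.91 and 11.11 with vehicle (3.33-fold, adjusted p = 0.00949). Msmo1, a sterol demethylation enzyme, rose 3.63-fold. The list median was 1.00 on ribociclib array A, -0.29 on B and 0.07 on C. Without array A the list median was 0.04, against 0.30 with it.

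The mitochondrial respiratory chain list was lower throughout. All 39 members had a negative difference and the median was -0.53, although only 5 passed, beside 2.74% lower over all genes. Beside Ppargc1a these were Cyc1 and Uqcrfs1 of complex III and Ndufs3 and Ndufv2 of complex I. Cyc1, cytochrome c1, was at 12.16, 11.55 and 11.09 with ribociclib, against 12.54, 12.50 and 12.44 with vehicle (1.86-fold lower, adjusted p = 0.0403). Ndufs3 fell 1.79-fold, Ndufv2 1.71-fold and Uqcrfs1 1.68-fold. For all 4 structural subunits array A was closest to vehicle and the vehicle arrays were nearly identical. The list's median on the single arrays was -0.19, -0.76 and -0.57 for ribociclib A to C and between -0.04 and 0.02 for vehicle. Without array A, 22 of the 39 passed, and without any other array 1 passed. With quantile normalisation the median was -0.50.

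Gene families were taken by symbol, an addition made after seeing the data. Of 73 genes of mitochondrial ribosomal proteins, 71 had a negative difference with a median of -0.62. Among them 2, Mrpl15 and Mrpl34, passed, beside 2.74% lower over all genes. Quantile normalisation gave a median of -0.49 and 1 that passed. The family's median difference from the vehicle mean was -0.16, -0.81 and -0.69 on ribociclib arrays A, B and C. Without ribociclib array A 15 of the 73 passed, and without any other 1 array 1 passed. Mrpl15 was at 9.67, 9.28 and 9.20 with ribociclib, against 10.52, 10.53 and 10.55 with vehicle (2.21-fold lower, adjusted p = 0.00795). Of 39 mitochondrial carriers (Slc25a), 4 fell and 1 rose. The number that passed was 9, 5 and 3 without ribociclib arrays A, B and C and 2, 2 and 1 without vehicle arrays A, B and C. Those that fell were the ornithine carrier gene Slc25a15 (2.71-fold), the aspartate-glutamate carrier gene Slc25a12 (2.42-fold), the oxoglutarate carrier gene Slc25a11 (1.66-fold) and Slc25a45 (3.39-fold). Slc25a25, an ATP-Mg/phosphate carrier gene, was at 9.76, 9.40 and 9.70 with ribociclib, against 7.19, 7.29 and 7.75 with vehicle (4.64-fold higher, adjusted p = 0.0215). In the list of PPARα and fatty acid oxidation, 2 of 34 fell, Angptl4 and Eci2 (2.21-fold), a peroxisomal enzyme of unsaturated fatty acid oxidation, beside 2.74% lower over all genes. Without ribociclib array A 8 of the 34 passed, without B 2, and without ribociclib array C or any 1 vehicle array 1. Differences depended somewhat on signal level: the median over all genes was -0.23 at mean signals of 7 to 8 and -0.13 at 11 to 12, but 0.10 at 4 to 5. The part of this shift in the mitochondrial result was not tested.

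Genes of T and NK cells were among those that fell. Of 32 measured, 7 were lower and 0 higher, with a median of -0.96, beside 2.74% lower and a median of 0.00 over all genes. In a bulk scraping, fewer cells of a type and less RNA per cell cannot be told apart. Cd8a, a chain of the CD8 coreceptor, was at 4.85, 5.41 and 5.71 with ribociclib, against 6.80, 6.96 and 7.24 with vehicle (3.20-fold lower, adjusted p = 0.00447). Nkg7, a cytotoxic granule protein gene, was at 5.88, 7.03 and 6.67 with ribociclib, against 8.08, 7.75 and 7.93 with vehicle (2.63-fold lower, adjusted p = 0.00564). Ribociclib arrays were below all vehicle arrays for both, and A was the lowest. Xcl1, a chemokine gene of activated lymphocytes, fell 3.53-fold, the T cell receptor kinase gene Lck 2.76-fold, Cd3d of the T cell receptor complex 2.69-fold, the common cytokine receptor gene Il2rg 2.29-fold and Itgae 2.31-fold.

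The size of the lymphocyte result depended on array A. The list's median was -1.13, -0.51 and -0.18 on ribociclib arrays A to C, and -0.36 overall without A. Its mean signal ran between 5.66 and 6.76 on the ribociclib arrays and between 6.85 and 7.10 on the vehicle arrays. Granzyme and chemokine genes such as Gzma and Ccl5 were low mainly on array A and did not pass: Gzma gave 7.28, 10.23 and 10.74 with ribociclib, against 10.57, 11.18 and 11.22 with vehicle. Cd8a and Nkg7 passed in every fit that left out 1 array. The number called was 6, 5 and 10 without ribociclib arrays A, B and C and 3, 2 and 3 without vehicle arrays A, B and C.

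Some markers of myeloid cells fell too. Of 26 macrophage and dendritic cell genes, 3 fell, with a median of -0.47: Itgax, the CD11c integrin gene (3.25-fold), Clec9a, a receptor gene of cross-presenting dendritic cells (3.59-fold), and the cytokine receptor gene Flt3 (1.70-fold). Clec9a was at 6.30, 4.68 and 4.51 with ribociclib, against 6.35, 7.29 and 7.38 with vehicle, so its groups were nearly in contact through array A and vehicle A. Without vehicle array B or C or ribociclib array B, 0 of the 26 passed. Irf8, a transcription factor gene of dendritic and other myeloid cells, fell 2.21-fold, the only one of 41 interferon-stimulated genes to pass. In the integrin family 6 of 26 fell and 0 rose, with a family median of 0.10. They were Itgae and its partner Itgb7 (2.17-fold), Itgax, Itgad, Itgb2 and Itga2b, the last a platelet integrin gene, and none passed without vehicle array B or C. All 15 B and plasma cell genes, 19 mast cell genes and 10 genes of MHC class II presentation missed the threshold, which 3.73% of all genes passed. Their medians were 0.04, 0.06 and -0.22, and 0 in lists this small is close to that share. A B cell gene passed without vehicle array A or ribociclib array A, and a mast cell gene without ribociclib array C.

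The other interferon-stimulated genes divided the ribociclib arrays. Their median difference was 0.60, but on the single arrays it was -0.44, 1.29 and 0.76 for A to C, against values between -0.11 and 0.13 for vehicle. Rsad2 (viperin) was at 11.91, 13.32 and 12.64 with ribociclib, against 10.62, 10.32 and 10.84 with vehicle, and did not pass (adjusted p = 0.0761). Irf7, the amplifier of the interferon response, was at 10.39, 13.01 and 11.46 with ribociclib, against 10.47, 11.09 and 10.92 with vehicle. Array A was at or below vehicle for Irf7 and array B far above. Without array A, 13 of the 41 passed and the median was 1.06.

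The pathway that ribociclib targets was read at the RNA level. Of 18 genes for CDK4, CDK6, their partners and inhibitors, 2 fell and none rose. Over all genes 2.74% were lower and 0.999% higher. Cdkn2d, the gene of the CDK4/6 inhibitor p19, was at 6.81, 7.25 and 6.34 with ribociclib, against 8.23, 8.28 and 8.38 with vehicle (2.82-fold lower, adjusted p = 0.00687). Rbl1, the gene of the pocket protein p107, was 1.82-fold lower (adjusted p = 0.0203). Cdkn2d passed in every fit that left out 1 array. Cdk4 was at 8.48, 6.24 and 6.59 with ribociclib and at 7.40, 7.99 and 7.47 with vehicle, a difference of -0.51 (95% interval -1.48 to 0.46). Its ribociclib values lay on both sides of vehicle, with array A highest. Cdk6 was at background in both groups. Ccnd1 (cyclin D1) differed by 0.07 (-1.04 to 1.19) and Rb1 by -0.37 (-0.76 to 0.02). Cdkn1a, the gene of the inhibitor p21, was at 10.79, 11.38 and 11.06 with ribociclib, against 10.14, 10.21 and 10.46 with vehicle, without overlap, but its difference of 0.81 did not pass (0.32 to 1.30, adjusted p = 0.0648). A second Cdkn1a probe set, also bright (mean signal 9.01), differed by 0.30 and did not pass (adjusted p = 0.716 by limma). With the mean of its probe sets, Cdkn1a had an adjusted p of 0.289 by limma. Without ribociclib array A, Cdkn1a passed as higher (adjusted p = 0.03) and Cdk4 as lower (adjusted p = 0.0433).

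Neither proliferation list held a gene that passed. Of 36 genes of G1/S and DNA replication and 39 of G2/M and mitosis, 0 passed by limma, beside 3.73% of all genes. In lists this small 0 is close to that share. The medians were -0.17 and 0.14. The mitotic list had a median of 1.17 on ribociclib array A, -0.28 on B and -0.51 on C, so its arrays lay on both sides of vehicle. Mki67, the gene of the proliferation antigen Ki-67, was at 8.38, 7.28 and 5.43 with ribociclib, against 8.90, 8.01 and 7.78 with vehicle. The difference was -1.19 (95% interval -2.54 to 0.15, adjusted p = 0.302). Without ribociclib array A, 2 of the 39 mitotic genes passed, and without B, 1 of the 36 replication genes. In the list of ribosome biogenesis and MYC targets, 0 of 27 passed, with a median of -0.01, and 2 passed without ribociclib array A and 1 without vehicle array A. Among 20 p53 targets only the kinase gene Plk2 rose (2.61-fold, adjusted p = 0.0379).

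Most epithelial lists held no called gene, beside 3.73% of all genes, and 0 in lists this small is close to that share. No gene passed among 15 Paneth cell, 15 goblet cell and 15 tuft cell genes, 24 brush border genes, 27 genes of lipid absorption, 42 drug-metabolising enzymes and receptors and 24 NRF2 targets, and their medians lay between -0.10 and 0.18. Without ribociclib array A, 3 goblet cell, 2 Paneth cell and 1 tuft cell gene passed, as did 1 gene each of the drug metabolism and NRF2 lists. Without ribociclib array B, 1 gene each of the brush border, lipid absorption and drug metabolism lists passed, and without vehicle array A, 1 tuft cell gene. Alpi, the intestinal alkaline phosphatase of the brush border, was at 9.61, 13.02 and 10.22 with ribociclib and at 12.36, 11.86 and 12.66 with vehicle. It was low on arrays A and C only, and the difference passed only when ribociclib array B was left out (adjusted p = 0.246 with it and 0.00698 without it). Cyp1a1 varied more within the vehicle group, at 5.20, 12.92 and 9.33, than between the groups. Cyp3a9 differed by 0.15 (95% interval -0.30 to 0.60), and Lgr5, the marker of crypt-base stem cells, was near background. Hopx, a marker gene of reserve stem cells in mouse that villus cells also express, was the only 1 of 17 stem cell genes to fall, at 10.61, 9.03 and 10.37 with ribociclib, against 11.61, 11.77 and 11.69 with vehicle (3.21-fold, adjusted p = 0.0196). Ribociclib array B was lowest for it. Chgb, the granule protein gene of enteroendocrine cells, rose 1.78-fold and the tight junction gene Cldn4 2.45-fold. Among genes of transcription elongation, Ell2 rose 2.39-fold, and Hexim1, the inhibitor of P-TEFb, fell 2.84-fold.

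Markers of the wall beneath the epithelium were high on ribociclib array A. The median of 20 smooth muscle genes was 1.23 on array A, -0.05 on B and 0.21 on C, and that of 29 fibroblast and collagen genes was 1.32, -0.34 and 0.19. Mean signal of the smooth muscle list ran between 6.46 and 7.72 with ribociclib and between 6.37 and 6.63 with vehicle. None of the smooth muscle genes passed with all arrays (2 did without ribociclib array A), and the only fibroblast gene that did was Timp1, a metalloproteinase inhibitor gene. Timp1 was at 8.25, 8.21 and 7.86 with ribociclib, against 5.51, 6.57 and 6.39 with vehicle (3.87-fold, adjusted p = 0.00494 by limma). It was highest on array A, with B nearly the same. Array A carried the highest early gene and mitotic medians and the lowest lymphocyte median too, and the part of the deeper tissue in these was not tested. Ctrc, the pancreatic chymotrypsin C gene, was the only 1 of 20 pancreatic genes to pass (2.98-fold higher), beside 3.73% of all genes.

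**Figure D4:**
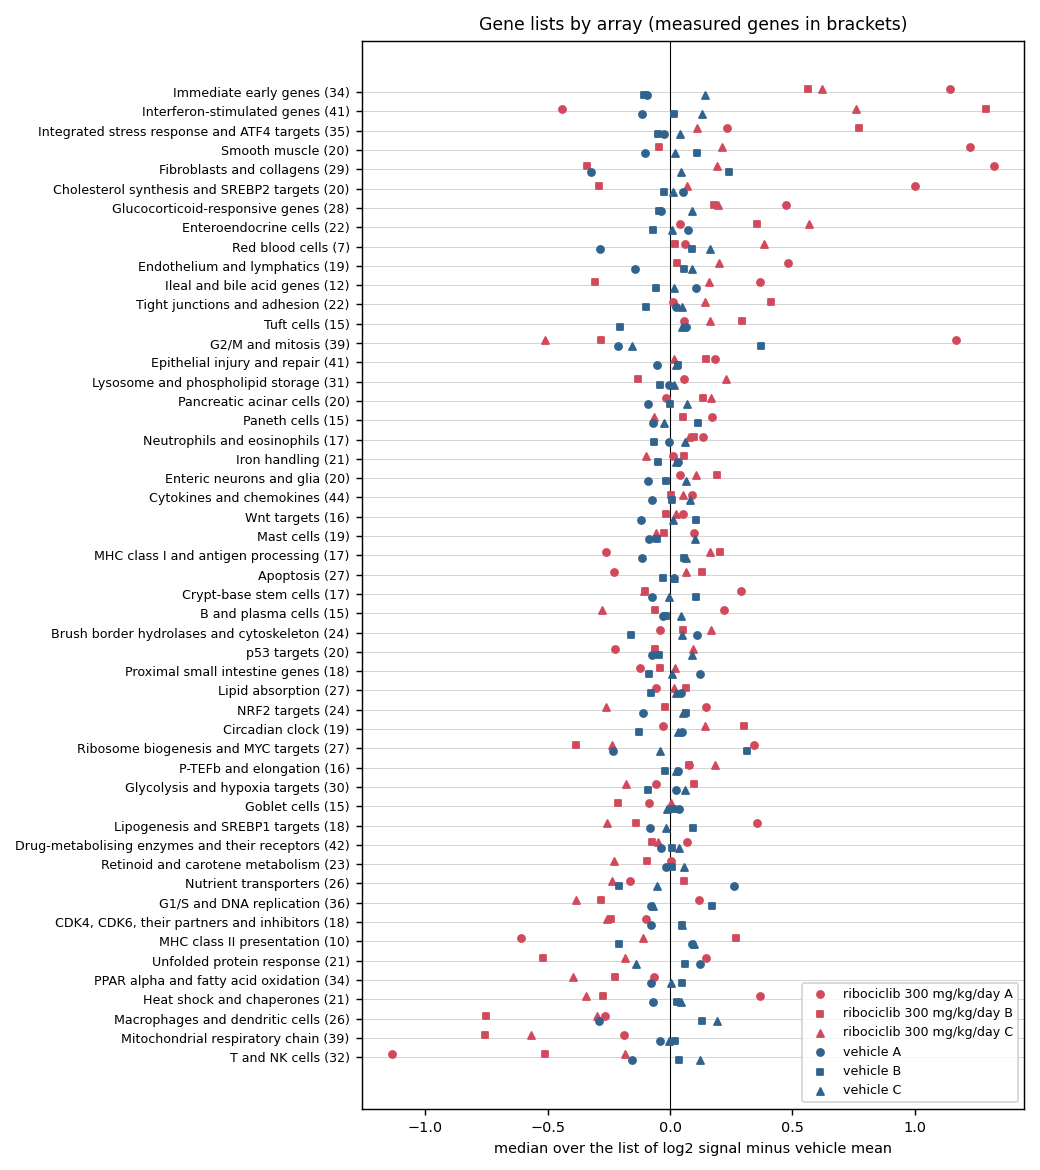
Median over each gene list of the log2 signal minus the vehicle mean, on each ribociclib (red) and vehicle (blue) array, with lists ordered by their difference between the groups. Immediate early genes are right of 0 on all 3 ribociclib arrays and respiratory chain genes left of 0, whereas mitotic, smooth muscle, collagen and interferon lists place ribociclib array A apart from B and C.

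Ribociclib was set against the other compounds directly, at doses that differ. Against abemaciclib at 120 mg/kg/day, which was given in the same formulation, 3865 genes differed (27.2%), 1423 higher with ribociclib (10%) and 2442 lower (17.2%). The mitotic list was lower with ribociclib in 39 of 39 genes with a median of -2.42, and 30 of 36 replication genes and 25 of 27 ribosome biogenesis genes were lower too. Mki67 differed by -2.93 on the log2 scale (adjusted p = 0.00379). T and NK cell genes were higher with ribociclib in 17 of 32, interferon-stimulated genes in 23 of 41 and MHC class II genes in 8 of 10. Mitochondrial genes were lower with ribociclib in 23 of 39 of the respiratory chain and in 60 of 73 of the mitochondrial ribosome. Against vehicle, abemaciclib at this dose had medians of 2.44 for the mitotic, 1.11 for the replication and 1.73 for the ribosome biogenesis list. Ribociclib had 0.14, -0.17 and -0.01. T and NK cell, interferon-stimulated and MHC class II medians were -1.76, -1.10 and -3.14 with abemaciclib. With ribociclib they were -0.96, 0.60 and -0.22. Respiratory chain and mitochondrial ribosome medians were 0.06 and 0.58 with abemaciclib and -0.53 and -0.62 with ribociclib. The 4 largest differences were Rdh7, a retinol dehydrogenase gene (4.43), Cda, cytidine deaminase (4.17), Rsad2 (4.14) and Irf7 (4.06), all higher with ribociclib. Adm (3.51) and Maff (2.72) were higher with ribociclib as well, and Bco1 (-2.37) and Slc16a1 (-2.66) lower. Ly6al differed by -0.07 (adjusted p = 0.968) and was bright on all arrays of both groups.

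The RNA quality measure differed between these groups, with β-actin 3′ and 5′ ends apart by 0.41, 0.40 and 0.90 on ribociclib arrays A to C and by 1.05, 0.91 and 0.86 on abemaciclib arrays A to C. With this measure as a covariate 1408 genes differed in place of 3865, with only the 2 groups fitted 1378, without abemaciclib array A 2118 and without ribociclib array C 2426. With the covariate, 35 of 39 mitotic, 18 of 36 replication and 17 of 27 ribosome biogenesis genes were lower with ribociclib, as were 9 of 39 respiratory chain and 19 of 73 mitochondrial ribosome genes. T and NK cell genes were then higher with ribociclib in 17 of 32, interferon-stimulated genes in 5 of 41 and MHC class II genes in 2 of 10. In the fit of only the 2 groups, 37 mitotic, 21 replication, 22 ribosome biogenesis, 4 respiratory chain and 35 mitochondrial ribosome genes were lower, and 7 T and NK cell, 11 interferon-stimulated and 6 MHC class II genes higher. Without abemaciclib array A the counts were 38, 25, 22, 14 and 46 lower and 11, 16 and 7 higher in the same order, and without ribociclib array C 38, 28, 24, 14 and 48 lower and 11, 15 and 8 higher. These fits of the lists were added after seeing the data.

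Against abemaciclib at 36 mg/kg/day, 54 genes differed (0.38%), with 32 higher with ribociclib (0.225%) and 22 lower (0.155%). The number was 0 when only these 2 groups were fitted and 9 to 1524 when 1 array was left out, with 9 without abemaciclib array C and 1524 without ribociclib array A. Adm was 3.57 higher on the log2 scale, Frat2 3.40 and Rsad2 3.11 higher, and Haus6, a spindle assembly gene, differed by -2.84. Maff differed by 2.15 (adjusted p = 0.0123) and Il1b by -2.15 (adjusted p = 0.00548). Against palbociclib at 100 mg/kg/day, given in the formulation of the vehicle arrays, 117 genes differed (0.823%), 53 higher with ribociclib (0.373%) and 64 lower (0.45%). The compound and its formulation cannot be told apart there. The number was 0 when only these 2 groups were fitted and 17 to 641 when 1 array was left out, with 17 without palbociclib array B and 641 without ribociclib array A. Of the 34 early genes 4 were higher, of the 35 stress response genes 3 were higher and of the 39 respiratory chain genes 3 were lower. Ppargc1a differed by -2.69 (adjusted p = 0.00074) and Il1b by -2.07 (adjusted p = 0.0045), while Maff (2.93) and Adm (2.96) were higher.

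Fabp6, the ileal bile acid-binding protein gene, was higher with ribociclib than with palbociclib (adjusted p = 0.0269). Fabp6 gave 14.24, 10.60 and 13.48 with ribociclib, against 4.16, 4.43 and 5.52 with palbociclib at 100 mg/kg/day, signals near or below the array median that were not shown to be above background, so no fold is given. With vehicle it gave 7.81, 8.67 and 5.25, and its difference of 5.53 from vehicle did not pass (adjusted p = 0.0584). All ribociclib arrays were above all vehicle arrays. The median of the 12 ileal and bile acid genes was 0.37, -0.31 and 0.16 on ribociclib arrays A to C. Fabp6 is most abundant in the ileum, and the stretch of intestine scraped is given only as jejunum.

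Each compound's own difference from the same 3 vehicle arrays gives the setting of the 24 genes. Ppargc1a differed from vehicle by -2.47 with ribociclib, -1.96 with abemaciclib at 120 mg/kg/day, -1.94 with abemaciclib at 36 mg/kg/day and 0.22 with palbociclib at 100 mg/kg/day. Angptl4 differed by -2.96, -1.75, -1.52 and -0.66 in the same order. Adm differed by 3.58, 0.07, 0.01 and 0.62, and Slc16a1 by -2.07, 0.59, 0.09 and -0.15. Because these differences share their vehicle arrays, they are values side by side and not independent results.

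**Figure D5:**
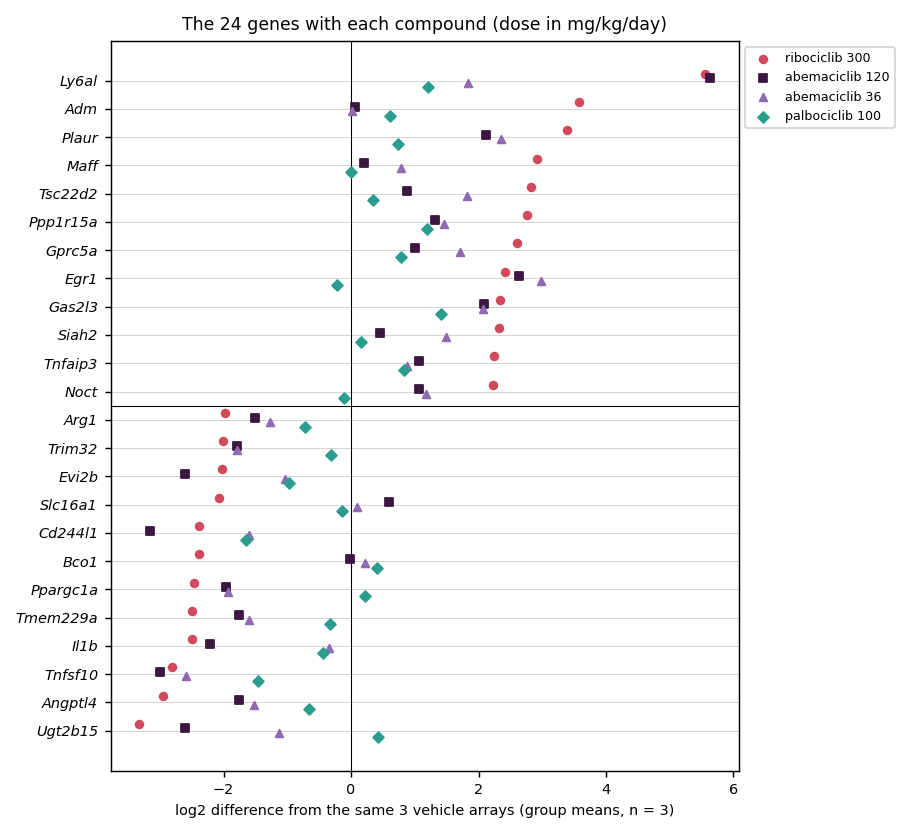
Difference of the group mean from the same 3 vehicle arrays, on the log2 scale, for the 24 genes with ribociclib at 300, abemaciclib at 120 and 36 and palbociclib at 100 mg/kg/day (n = 3 arrays per group). Ribociclib lies farthest from 0 for most genes, by the choice of the genes, with Egr1, Tnfsf10, Cd244l1, Evi2b and Ly6al farther out with an abemaciclib dose.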

How the data were processed

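RNA from jejunal mucosal scrapings was hybridised to Affymetrix rat arrays, 18 in all, 3 for each of 6 groups taken from the treatment labels. The values deposited by the authors are log2 signals, 1 per probe set and array; per the submitters' processing notes, RMA was used with the Affymetrix tools Expression Console and Transcriptome Analysis Console, whose versions are not given in the sources used here. RMA as usually run equalises the distribution of signal between arrays, so a change in total RNA would not be visible.

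Of 31099 probe sets, 57 were controls, 20826 had 1 gene symbol in the platform annotation, 436 had several and 9780 none. Entrez identifiers of 20758 matched the RefSeq table (GRCr8), and 0 symbols changed. The brightest probe set stood for each of 14217 genes, 4525 of which had more than 1. No 2 arrays held identical values. In R 4.3.3, limma 3.58.1 fitted group means to the 18 arrays, which leaves 12 residual degrees of freedom. Variances were moderated by eBayes along a trend in signal, and two-sided p-values were adjusted by Benjamini-Hochberg over all genes. It was tested on simulated data.

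The groups, gene lists and tests were chosen with earlier results of these data known. Genes were named as the 12 largest rises and 12 largest falls with non-overlapping arrays among called genes, up to 5 members of each list by smallest p, a set of cell cycle, epithelial and drug-response genes, and up to 4 of the largest difference in each direct comparison. The 51 lists that were counted are in the plot of lists by array, and 24 of them held no called gene. Promoter sequences came from the RefSeq table, 250 bases before each start. Alternatives changed the normalisation (quantile, median centring), the filter on dim genes (lowest 30% left out), the probe set rule, the variance model, the arrays fitted and the covariates. Some genes are not analysed here.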

Additional observations from a re-analysis of the deposited data

How the results depend on the processing

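Against vehicle, the 531 calls became 388 with quantile normalisation, 549 with median centring, 583 without dim genes, 611 without an intensity trend and 374 with the RNA quality measure as a covariate, and 29 when only the 6 arrays were fitted. Quantile normalisation gave 134 higher and 254 lower, against 142 and 389. Leaving out 1 array gave 120 to 1317 calls against vehicle, 2118 to 4781 against abemaciclib at 120 mg/kg/day, 9 to 1524 against abemaciclib at 36 mg/kg/day and 17 to 641 against palbociclib at 100 mg/kg/day. For the higher abemaciclib dose the lowest was without its array A, and without ribociclib array C it was 2426. Against the lower dose the counts were 11, 962 and 9 without abemaciclib arrays A, B and C and 1524, 21 and 19 without ribociclib arrays A, B and C. Against palbociclib they were 69, 17 and 18 without palbociclib arrays A, B and C and 641, 309 and 40 without ribociclib arrays A, B and C. Fitted on its own 2 groups, each direct comparison gave 1378, 0 and 0 calls in the same order. The RNA quality covariate reduced the 3865 calls against abemaciclib at 120 mg/kg/day to 1408, and leaving out dim genes raised the 117 against palbociclib to 219. The cause of these shifts was not tested, except that fewer arrays enter the smaller fits.

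Deviations of same-lettered ribociclib and vehicle arrays from their group means had correlations of -0.03, -0.31 and 0.20 for A, B and C. These 3 values cannot tell whether the letters pair arrays. With the letter as a replicate block the counts were 660, 4127, 78 and 195 for vehicle, both abemaciclib doses (120 first) and palbociclib. Against vehicle, no gene that had passed changed direction, which leaving out an array could not bring about for genes whose arrays did not overlap. Of the named genes' values under the alternatives, 354 missed the threshold that the main value had passed, 3 passed it newly, 1057 stayed on their side and 4, all of Lgr5 (0.02 to 0.15), moved by more than the spread of the ribociclib arrays. Of the gene lists' values, 244 counts of called members moved by over 1.5 times and 596 did not, and 40 medians moved by more than that spread and 800 did not. Detection calls were not used, so falls to signals near the array median rest on values not shown to be above background.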

Other observations

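The genes below were chosen after their values were seen, for known roles or because they passed in every fit that left out 1 array. Sirt3, the main mitochondrial protein deacetylase, was at 6.55, 6.67 and 6.59 with ribociclib, against 8.17, 7.98 and 7.79 with vehicle (2.60-fold lower, adjusted p = 0.000555 by limma), and it passed without any 1 array. Sirt5, a mitochondrial desuccinylase, fell 1.97-fold, and Idh2, the mitochondrial NADP-dependent isocitrate dehydrogenase gene, fell 2.42-fold. Timm17a and Timm29, genes of the inner membrane import machinery, were 2.10-fold and 2.06-fold lower. Prkaa2, a catalytic subunit gene of AMP-activated kinase, fell 2.71-fold, and Insr, the insulin receptor gene, 2.25-fold. Fbp1 (fructose bisphosphatase) fell 2.54-fold and Khk (ketohexokinase) 1.84-fold.

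Cdx2, the homeobox gene that specifies intestinal epithelium, was at 9.11, 10.08 and 9.45 with ribociclib, against 10.86, 10.93 and 10.88 with vehicle (2.54-fold lower, adjusted p = 0.00919). The vehicle arrays were nearly identical for Cdx2 and every ribociclib array was below them, and the gene passed when any 1 array was left out. Cited2, a coactivator-binding protein gene that restrains hypoxia signalling, fell 3.23-fold (adjusted p = 0.00083) and passed in the same fits. Thra, the thyroid hormone receptor α gene, fell 2.03-fold. Nab2, a corepressor gene for EGR factors, fell 2.70-fold (adjusted p = 0.0162 by limma), while Egr1 and, at low signal, Egr2 were higher. E2f2, of the E2F family downstream of the retinoblastoma protein, fell by 1.59 on the log2 scale, and E2f1 differed by 0.05 (95% interval -0.31 to 0.41) near the array median.

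Some leukocyte genes outside the marker lists, also chosen after their values were seen, fell. Ptprc, the gene of the pan-leukocyte antigen CD45, was at 7.59, 6.64 and 7.69 with ribociclib, against 8.76, 8.88 and 9.01 with vehicle (2.99-fold lower, adjusted p = 0.0345). Coro1a, a leukocyte actin regulator gene, fell 3.58-fold, Spn (CD43) 3.18-fold and the haematopoietic GTPase gene Rac2 1.91-fold. Spn passed without any 1 array. Ribociclib array B was the lowest for Ptprc and array A the lowest for Coro1a and Spn. Mcm10, a replication initiation gene, was at 10.24, 5.81 and 9.05 with ribociclib, against 5.80, 5.82 and 5.71 with vehicle, so 2 of the 3 ribociclib arrays were far above the others, and it did not pass (adjusted p = 0.0723).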
